A study of Homo sapiens with 2 samples.

Results

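The 9 genes described here encode BAK1, the BH3-only proteins BAD, BCL2L11 (BIM), BID, BIK and HRK, and the BNIP proteins BNIP2, BNIP3 and BNIP3L (NIX). They were chosen as a gene family by plate position, as 9 of the 84 target wells of a human apoptosis quantitative PCR array, by a rule that contains no measured value. The deposited tables name wells by position and pair none with a gene. The names used here are those that the manufacturer's layout of the array named in the labels, 84 genes in alphabetical order, gives to wells A08 (BAK1), A05 (BAD), B03 (BCL2L11), B06 (BID), B07 (BIK), E07 (HRK), B12 (BNIP2), C01 (BNIP3) and C02 (BNIP3L). That layout was taken from general knowledge of the product and was not checked against a gene table, so every gene name below holds only if the plate followed it.

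The study measured 2 samples of LNCaP cells, an established human prostate adenocarcinoma line with wild-type p53. In 1 sample the cells received no agent, and in the other they were incubated with C-phycocyanin (C-PC), the blue light-harvesting protein of cyanobacteria, at 500 µg/mL for 24 h. Both were grown in complete RPMI medium with serum and antibiotics, and the labels do not mention a vehicle for the control. From each, 1000 ng of total RNA was reverse transcribed and amplified with SYBR Green over 40 cycles in 3 runs, of which the tables give 1 value per well. With 1 sample per group and no values of single runs, no difference below has a replicate check, no test was made, and all values describe these 2 samples. Markers of prostate epithelium were not among the wells analysed, and the labelled cell type was not checked.

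Apoptosis through mitochondria is set by the balance within the BCL2 family. BAK1 and BAX form pores in the outer mitochondrial membrane, anti-apoptotic members such as BCL2, BCL2L1 (BCL-xL) and MCL1 hold them in check, and BH3-only proteins either activate the pore formers or block the anti-apoptotic members. Much of this control acts on the proteins, through phosphorylation of BAD, cleavage of BID or unfolding of BAK1, and transcript levels do not report it. BNIP3 and BNIP3L carry an atypical BH3 region and are best known as receptors that mark mitochondria for removal by mitophagy, whereas BNIP2 is a signalling scaffold that was named for its interaction with a viral BCL2-like protein.

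Relative to the 5 reference wells, 2 of the 9 transcripts, HRK and BIK, stood at least 2-fold higher after C-PC, and none (0) stood at least 2-fold lower. Of the 72 target wells of the whole panel that were detected, 20.8% passed 2-fold upwards and 1.39% downwards, so that the 22.2% among the 9 genes was near the background of the panel. BAD was the 1 gene of the 9 with a lower level in C-PC, at 1.40-fold. The other 6 lay close together, between 1.29-fold (BNIP2) and 1.56-fold (BNIP3L) higher. Among the 72 detected wells, 80.6% had a log2 fold above 0, against 8 of the 9 genes. The median log2 fold was 0.58 for the 9 genes and 0.51 for all 72 wells.

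All folds rest on the threshold cycle (Ct), the point in the amplification where fluorescence passes a set level. Each added cycle stands for 2-fold less template where amplification is fully efficient. Detection required a Ct under 35 in both samples, which all 9 genes met. Each log2 fold is the Ct difference, C-PC minus control, corrected by the mean difference of reference wells H01 to H05 and turned in sign. All 5 reference wells crossed later in C-PC, by 0.76 ± 0.39 cycles on average (SD over 5 wells), from 0.21 cycles in H05 to 1.21 cycles in H04. The detected target wells crossed later by a median of 0.24 cycles, so the correction gives most of the panel a log2 fold over 0. The ± 0.39 beside each log2 fold below is that SD. It describes how far the reference wells differed from each other and contains no measurement error of the gene itself.

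**Figure D1:**
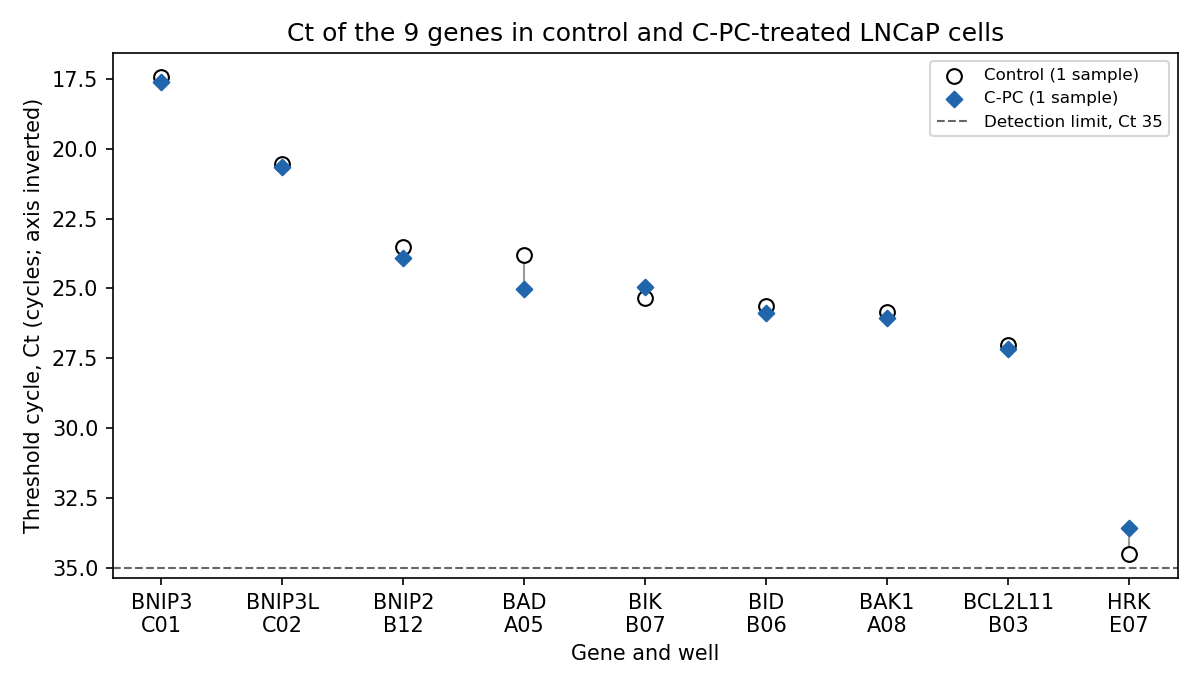
Threshold cycle (vertical axis, cycles, inverted so that higher levels lie at the top) of each of the 9 genes (horizontal axis, with the well) in the control (open circles) and the C-PC sample (blue diamonds), 1 sample each. The dashed line is the detection limit of 35; BNIP3 and BNIP3L cross first in both samples, BAD crosses 1.24 cycles later in C-PC, and HRK lies next to the limit.

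BAK1, the pore former of the group, crossed at cycle 25.8 in untreated and at cycle 26.0 in treated cells. The C-PC sample thus crossed 0.22 cycles later, about as late as H05, the reference well that shifted least. The log2 fold was 0.53 ± 0.39, a level 1.45-fold higher. Relative to single reference wells it ran from just below 0 with H05 to 0.99 with H04, so that its direction depended on the reference. Relative to the median shift of the 72 wells (plate median) the log2 fold of BAK1 was 0.02.

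BAX, the other pore former, had a control Ct of 23.8 and a C-PC Ct of 22.1, which gave a log2 fold of 2.45 ± 0.39. The difference between 2 log2 folds on the plate contains no reference at all. By this measure BAX exceeded BAK1 by 1.92 on the log2 scale, a 3.79-fold change of their ratio from the control to the C-PC sample. Relative to the plate median BAX was 3.84-fold higher, so a well in the middle of the panel differed from BAX by nearly as much as BAK1 did. BAX crossed earlier and BAK1 later in the C-PC sample.

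BCL2L11 encodes BIM, a BH3-only protein that binds all major anti-apoptotic members and can activate BAX and BAK1. It crossed at cycle 27.0 in untreated cells and at 27.2 after C-PC. The log2 fold was 0.62 ± 0.39, or 1.54-fold higher, and it stayed above 0 with each of the 5 reference wells, from 0.08 to 1.08. BID, which links death receptors to mitochondria once caspase-8 has cleaved it, crossed at cycle 25.6 in untreated cells and at 25.9 after C-PC. Its log2 fold was 0.49 ± 0.39, or 1.41-fold higher, and ran from -0.05 with H05 to 0.95 with H04. The 2 activators thus differed from each other by 0.13 on the log2 scale and from BAK1 by at most 0.09. Relative to the plate median the log2 fold was 0.11 for BCL2L11 and -0.02 for BID.

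BAD, BIK and HRK are BH3-only proteins of the sensitizer kind, which act mainly by occupying anti-apoptotic members. These 3 genes held both ends of the range of the 9. BAD, a target of survival kinases such as AKT, crossed at cycle 23.8 in untreated cells and at 25.0 after C-PC. Its shift of 1.24 cycles exceeded that of every reference well. The log2 fold was -0.48 ± 0.39, or 1.40-fold lower, and it was below 0 with each of the 5 reference wells, from -1.02 with H05 to -0.03 with H04. BAD was the sixth lowest (rank 6) of the 72 detected wells. Set against the plate median, BAD was 1.99-fold lower, just short of 2-fold.

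BIK, a BH3-only protein that sits largely in the endoplasmic reticulum, crossed at cycle 25.3 in untreated cells and at 25.0 after C-PC. It was 1 of 2 among the 9 genes, with HRK, to cross earlier in C-PC, which 34.7% of the 72 wells did. The log2 fold was 1.14 ± 0.39, or 2.20-fold higher, and ranged from 0.60 to 1.59 over single reference wells. Not every reference put BIK past 2-fold. With H01 alone the log2 fold was 0.96, and relative to the plate median BIK was 1.54-fold higher. In the control BAD crossed 1.55 cycles before BIK, and in the C-PC sample BIK crossed 0.07 cycles before BAD. The ratio of BIK to BAD therefore changed by 3.07-fold, and this value does not depend on the reference wells. It sets 2 genes near opposite ends of the 9 against each other. A well in the middle of the panel already gained 1.99-fold on BAD.

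HRK (harakiri), known best from neurons deprived of growth factors, was near the detection limit. It crossed at cycle 34.5 in untreated cells and at 33.6 after C-PC. The log2 fold was 1.70 ± 0.39, or 3.26-fold higher, running from 1.16 to 2.16 with single reference wells, and 2.28-fold relative to the plate median. HRK was the seventh highest (rank 7) of the 72 wells and the 1 gene of the 9 that stayed at least 2-fold higher with each reference well and with the plate median. With H05, the strictest of these, 9.72% of the 72 wells were at least 2-fold higher, so the same share stayed so with all. BAX, whose lowest log2 fold over single reference wells was 1.91, was among them. At a Ct as late as that of HRK few template molecules enter the reaction, and the spread of the runs is not in the tables used here. With a detection limit of Ct 32, HRK was left out, and 1 of 8 genes was at least 2-fold higher, against 18.8% of 64 wells. The detected wells outside the 9 genes with the log2 folds nearest to HRK were TP73 (1.71), TNFRSF10A (1.75) and TNFRSF10B (1.93), over 2 samples only.

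**Figure D2:**
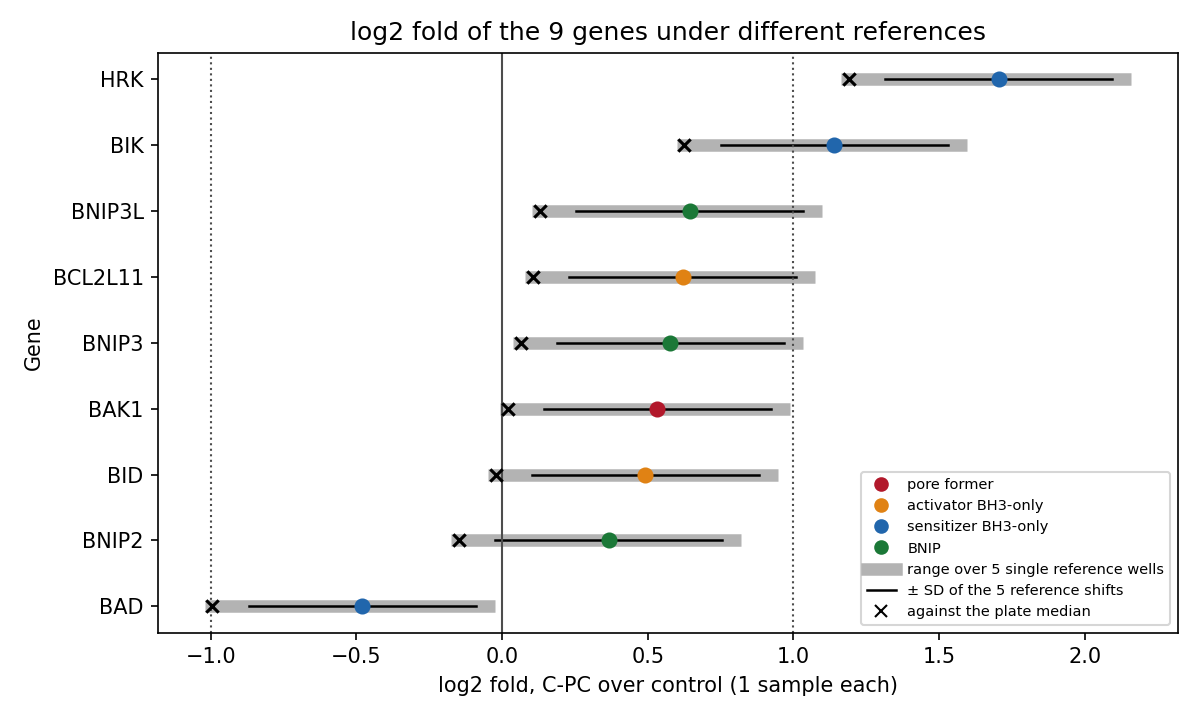
log2 fold, C-PC over control (horizontal axis), of the 9 genes (vertical axis), coloured by role; points use the mean of the 5 reference wells, thin lines are ± the SD of the reference shifts (0.39), grey bars span the 5 single reference wells, crosses use the plate median, and dotted lines mark 2-fold. The bars of 5 genes lie above 0, the bar of BAD lies below 0, and those of BAK1, BID and BNIP2 cross it.

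BNIP3 and BNIP3L were the 2 earliest of all 84 target wells in both samples. BNIP3 crossed at cycle 17.4 in untreated cells and at 17.6 after C-PC. BNIP3L crossed at 20.6 and 20.7, respectively. The earliest target well outside the 9 genes stood at 21.7 in the control and 22.1 in C-PC. Ct values of different assays also differ by amplicon and efficiency, and they order genes only roughly. In the authors' deposited table of ratios to the reference wells, BNIP3 stood at 2.10 for untreated and at 3.13 for treated cells. BNIP3L stood at 0.243 and 0.378 in the authors' deposited table.

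The log2 fold was 0.58 ± 0.39 for BNIP3 and 0.64 ± 0.39 for BNIP3L, or 1.49-fold and 1.56-fold higher. These mitophagy receptors differed from each other by 0.07 on the log2 scale. Over single reference wells BNIP3 ran from 0.04 to 1.03 and BNIP3L from 0.10 to 1.10. Relative to the plate median both were near 0, at 0.06 and 0.13. BNIP2 crossed at cycle 23.5 in untreated cells and at 23.9 after C-PC. Its log2 fold of 0.37 ± 0.39, or 1.29-fold higher, ran from -0.17 to 0.82 over single reference wells.

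Of the 9 genes, 5 were higher in C-PC with each of the 5 reference wells (HRK, BIK, BNIP3L, BCL2L11 and BNIP3), 1 was lower with each (BAD), and the direction of 3 depended on the reference. Of the 72 detected wells, 47.2% were higher and 8.33% lower with each of the 5, so that these counts were near the background. Each reference moves all genes by the same amount, so these are not separate checks, and the order of the 9 log2 folds stays the same. Of the 36 pairs of the 9 genes, 12 had log2 folds that differed by at least 1. Of these 12 pairs, 7 involved HRK and the other 5 did not. The 5 pairs without HRK set BAD against BAK1, BCL2L11, BNIP3, BNIP3L and BIK. The share of such pairs among all wells of the panel was not calculated. Relative to the plate median the log2 fold was 1.19 for HRK and -0.99 for BAD. Wells at the middle of the panel thus also differed from these 2 genes by about 1. Without the share for the panel, the count cannot be called a trait of the 9 genes.

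The count of the 9 genes past 2-fold changed with the reference, as did the share of the panel. With the plate median 1 of 9 (HRK) was higher, against 9.72% of the 72 wells, and 0 were lower, against 6.94%. H05 gave 1 of 9 higher, against 9.72%, and 1 of 9 lower (BAD), against 8.33%. H04 gave 5 of 9 higher, against 47.2%, while H03 gave 2 of 9, against 36.1%, and H01 gave 1 of 9, against 15.3%. Without any reference 0 of 9 were higher, against 5.56%, and 1 of 9 was lower (BAD), against 12.5%. At a threshold of 1.5-fold 4 of 9 were higher, against 45.8%, and 0 were lower, against 4.17%. At 3-fold 1 of 9 (HRK) was higher, against 9.72%. None of the 9 was lower with H01, against 2.78% of the wells.

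**Figure D3:**
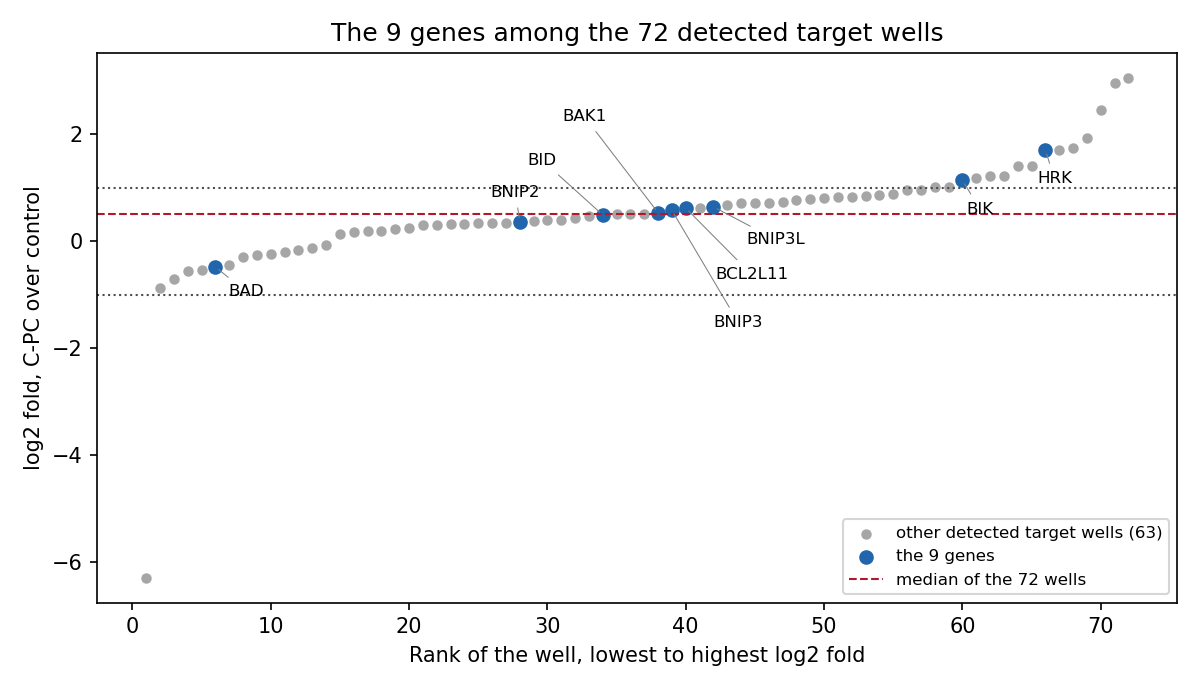
log2 fold, C-PC over control (vertical axis), of the 72 detected target wells by rank from lowest to highest (horizontal axis), relative to the mean of the 5 reference wells; the 9 genes are blue and labelled, the dashed line is the median of the 72 wells (0.51), and dotted lines mark 2-fold. HRK and BIK lie above 2-fold, BAD at rank 6 from the low end, and 6 genes lie near the median.

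BAK1, BCL2L11 and BNIP3, from 3 different roles, had log2 folds within 0.09 of each other. Their promoters are shown because they hold letters that match the motifs of 3 different stress-responsive factors. They run from 250 bases before to 50 bases after the gene start, in the RefSeq annotation of GRCh38.p14, and each is written 5′ to 3′ on the strand of the gene. Capitals mark matches on either strand. In BAK1 they mark 1 match to the decamer consensus of a p53 half-site, which is only a part of a p53 site. In BCL2L11 they mark GTAAACA (forkhead factors such as FOXO3, which is known to act on BCL2L11). In BNIP3 they mark ACGTG or GCGTG (the core bound by hypoxia-inducible factors, which are known to act on BNIP3).
BAK1 promoter, chr6:33580227-33580526, minus strand: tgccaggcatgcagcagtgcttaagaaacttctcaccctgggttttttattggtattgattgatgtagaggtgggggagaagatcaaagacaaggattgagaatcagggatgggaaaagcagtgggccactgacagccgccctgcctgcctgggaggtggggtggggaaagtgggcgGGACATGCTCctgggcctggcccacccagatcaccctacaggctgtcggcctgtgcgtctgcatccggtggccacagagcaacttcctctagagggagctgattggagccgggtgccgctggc
BCL2L11 promoter, chr2:111120664-111120963, plus strand: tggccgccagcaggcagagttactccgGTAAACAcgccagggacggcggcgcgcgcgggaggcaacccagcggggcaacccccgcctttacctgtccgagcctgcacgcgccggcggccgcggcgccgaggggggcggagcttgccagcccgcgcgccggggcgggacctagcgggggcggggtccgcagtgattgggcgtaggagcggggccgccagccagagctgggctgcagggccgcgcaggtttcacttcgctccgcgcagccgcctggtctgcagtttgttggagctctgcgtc
BNIP3 promoter, chr10:131981874-131982173, minus strand: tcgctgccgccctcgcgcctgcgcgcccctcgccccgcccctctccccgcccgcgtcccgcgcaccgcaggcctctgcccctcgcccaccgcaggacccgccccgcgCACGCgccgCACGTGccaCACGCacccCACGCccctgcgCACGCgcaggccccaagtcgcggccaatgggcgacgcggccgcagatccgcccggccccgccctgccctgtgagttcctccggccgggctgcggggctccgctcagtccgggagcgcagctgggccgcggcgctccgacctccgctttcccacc

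The p53 half-site decamer in BAK1 lay 73 to 64 bases before the start. Among 35116 promoters of this length in the table, 6.63% held such a decamer. GTAAACA in BCL2L11 lay 223 to 217 bases before the start, and 3.42% of the promoters held it. BNIP3 had 6 matches to the hypoxia core, of which 2 overlap as a palindrome, all between 143 and 100 bases before the start, and 48.4% of the promoters held at least 1. The table held 13 promoters of 7 of the 9 genes, since some genes have several starts. Of these 13, the p53 half-site decamer was in 1 (BAK1), GTAAACA in 1 (BCL2L11), and the hypoxia core in 10, which belong to BAD, BCL2L11, BID, BNIP2 and BNIP3. The motifs were chosen after the sequences were seen. A match describes letters in the window and was not tested as a site in these cells.

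The other genes of the mitochondrial pathway gave the following values in the same samples. Of the 7 other BCL2 family genes on the panel, 5 were detected in both samples. Of these, 2 were at least 2-fold higher, BAX and BCL2L1, against 20.8% of the 72 wells, and none (0) was at least 2-fold lower, against 1.39%. BCL2L1 was 1.58-fold higher relative to the plate median. Their median log2 fold was 0.74, against 0.51 for all 72 wells. BCL2L1 had a log2 fold of 1.18 ± 0.39, within 0.04 of BIK. BCL2L2 (BCL-w) had 0.74 ± 0.39 and MCL1 0.25 ± 0.39. BCL2 crossed at cycle 29.2 in untreated cells and at 30.5 after C-PC, with a log2 fold of -0.54 ± 0.39, within 0.06 of BAD. BCL2A1 was detected in the control alone, at a Ct of 33.3, and BCL2L10 in neither sample.

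Ratios between death-promoting and anti-apoptotic transcripts need no reference well. The ratio of BAK1 to BCL2 was 2.11-fold higher in the C-PC sample and that of BCL2L11 to BCL2 2.24-fold higher, while the ratio of BAX to BCL2 was 7.97-fold higher. BCL2 itself was at rank 5 from the low end of the 72 detected wells. A well in the middle of the panel gained 2.08-fold on BCL2, so the values for BAK1 and BCL2L11 were near the background. Against MCL1, an anti-apoptotic member that holds BAK1, the ratio of BAK1 was 1.22-fold higher and that of BCL2L11 1.29-fold higher. Against BCL2L1 the ratio of BAK1 was lower, since BCL2L1 exceeded BAK1 by 0.64 on the log2 scale. The ratio of BAD to BCL2 was 1.04-fold higher in the C-PC sample and that of BIK to BCL2L1 1.02-fold lower.

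Of 6 genes that act once mitochondria have released their contents, or that restrain this step, all 6 were detected. Of these, 1 was at least 2-fold higher, the caspase inhibitor XIAP at 2.03-fold, against 20.8% of the 72 wells, and none (0) was at least 2-fold lower, against 1.39%. XIAP was 1.42-fold higher relative to the plate median, and its log2 fold with H01 alone was 0.84. The other 5 ran from a log2 fold of -0.21 for APAF1, the scaffold of the apoptosome, to 0.78 for CYCS, which encodes cytochrome c. The median over all 6 was 0.49, beside 0.58 for the 9 genes.

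**Figure D4:**
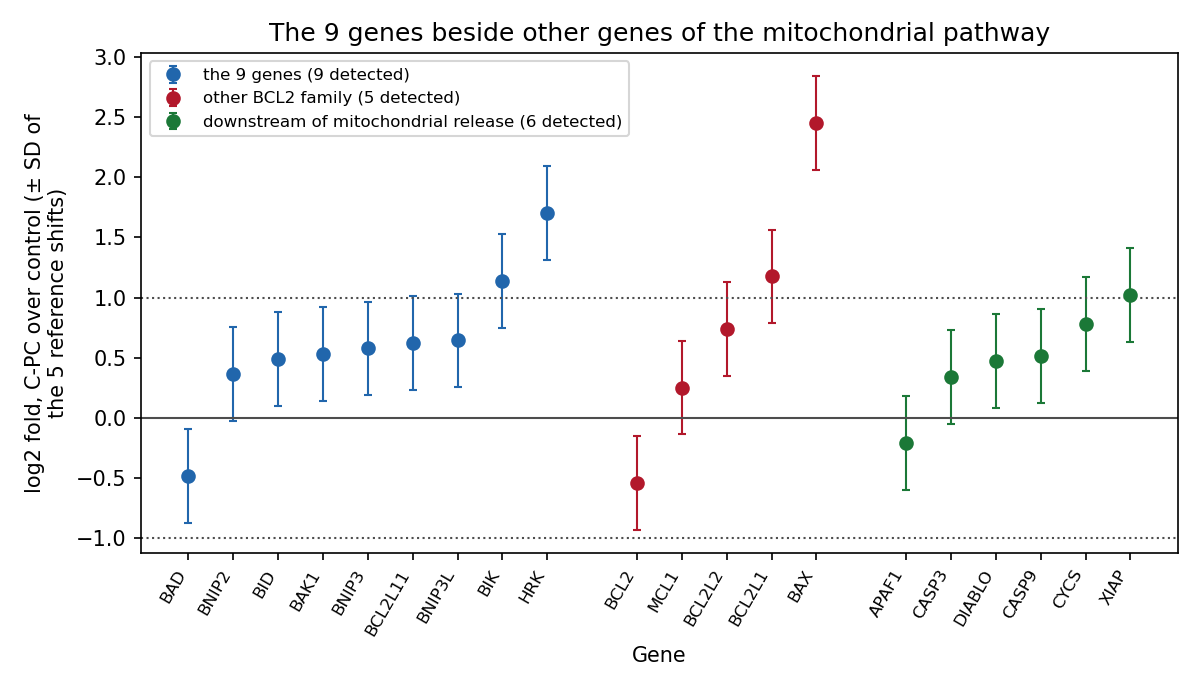
log2 fold, C-PC over control (vertical axis, relative to the mean of the 5 reference wells), of the 9 genes (blue), the 5 detected other BCL2 family genes (red) and 6 genes downstream of mitochondrial release (green); bars are ± the SD of the reference shifts (0.39), which contains no measurement error of the gene, and dotted lines mark 2-fold. BAX, at 2.45, lies above all 9 genes.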

How the data were processed

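Quantitative PCR of a human apoptosis array was measured in 1 control and 1 C-PC sample of LNCaP cells. Per the file headers, the authors deposited Ct values that were not normalized, and a fold change (ratio) of the form 2 raised to minus ΔΔCt, C-PC over control, normalized to housekeeping genes. A further table of ratios, which the authors deposited with no scale stated, equalled 2 to the power of minus the Ct difference to the mean of wells H01 to H05 to within 0.0047 on the log2 scale for the 9 genes. The way in which the 3 runs were combined was not found in the labels or headers. PCR gives no read depth, and the number of samples limits the precision.

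Log2 folds were recalculated from Ct against the mean shift of H01 to H05, and differed from those of the authors' deposited table by at most 0.0051 for the 9 genes. Genes named were the 9, the other BCL2 family genes, a list downstream of mitochondrial release, and the 3 detected wells nearest to the gene with the largest fold. 1 item of the downstream list is not reported here. The rule for the 9 genes contains no measured value, but the grouping and the lists were drawn up with earlier results of these data known. Their wells were named by the layout taken from general knowledge. Its 84 symbols were alphabetical and all present in RefSeq, which does not show which gene was in which well. Lymphocyte genes were not evaluated as markers of other cells, and their wells count only among the wells of the panel. Alternatives were single reference wells, means of 4, the plate median, no reference, the authors' values, Ct limits of 32, 37 and none, thresholds of 1.5-fold and 3-fold, and the median without BNIP2. The calculation was run on simulated plates whose reference and target wells shared the same mean shift, unlike these data. That checks the arithmetic and not the choice of reference. Tools were matplotlib 3.10.9, pandas 2.3.3, numpy 2.4.6 and Python 3.11.15.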

Additional observations from a re-analysis of the deposited data

How the results depend on the processing

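Of the 9 genes, 2 were past 2-fold upwards when the 5 reference wells were averaged, against 20.8% of the 72 detected wells. That number became 5 under H04 (47.2% of the wells) and 0 when no reference was used (5.56%). It was 1 each under H01 (15.3%), H05 (9.72%) and the plate median (9.72%). A Ct limit of 32, which leaves out HRK, gave 1 (18.8% of 64 wells). A 1.5-fold threshold gave 4 (45.8%) and a 3-fold threshold 1 (9.72%). The number past 2-fold downwards, 0 at first (1.39%), was 1 under H05 (8.33%) and 1 without a reference (12.5%), BAD in both cases. The median log2 fold of the 9 genes, 0.58, became 1.03 under H04, 0.037 under H05, 0.064 under the plate median and -0.18 without a reference. Under the other alternatives run it lay between 0.39 and 0.85. Of 12 other references, 4 (H04, H05, the plate median and none) moved all 9 log2 folds by over 1 SD of the reference shifts. Of the 108 log2 folds of single genes under these 12, 11 had the opposite sign, in BAK1, BCL2L11, BID, BNIP2, BNIP3 and BNIP3L. BAD, BIK and HRK kept their sign under every alternative run that kept them. Of the 72 detected wells, 34.7% crossed earlier in C-PC without a reference and 8.33% were lower with each reference well. Such wells keep their sign under all 12 in the same way, so this is not particular to the 3 genes. No paired analysis was possible because a single sample stands on each side. Ct limits cannot change the fold of a single gene, and the authors' values are the same calculation. Leaving out runs was not possible with 1 value per well and sample, and the late Ct of HRK limits its fold.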
